A study of Mus musculus with 19 samples.

Results

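The replication-dependent histone genes encode the linker histone H1 and the core histones H2A, H2B, H3 and H4 that package newly copied DNA. They were chosen here by name alone, with no measured value: every gene whose symbol in the authors' table follows the naming of the clustered histone genes (H1f1 to H1f5 and the H2ac, H2bc, H3c and H4c series). The rule found 59 genes of the 55416 in the count table, all on mouse chromosomes 13 and 3: 5 H1, 15 H2A, 16 H2B, 11 H3 and 12 H4 genes. After the filter on low counts 52 were tested among 19234 genes, namely all 5 H1, 9 H2A, 15 H2B, 11 H3 and 12 H4 genes. The 7 that were not tested, H2ac7, H2ac10, H2ac11, H2ac12, H2ac15, H2ac22 and H2bc24, had 5 to 236 reads each over all libraries.

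Total RNA depleted of ribosomal RNA was sequenced from the right hippocampus of C57BL6 mice, 4 days after status epilepticus set off by repeated low doses of kainate, a glutamate receptor agonist, or 4 days after saline. The 19 libraries comprise 5 of WT mice and 5 of EZH2nHom mice given saline, and 5 of WT and 4 of EZH2nHom mice given kainate. The ages are not given in the sources used here. WT mice were EZH2(+/+);Syn1Cre(+/-), so that the controls carried Cre as well, and EZH2nHom mice were homozygous for floxed EZH2 alleles deleted by Synapsin1-Cre. EZH2 is the methyltransferase of Polycomb repressive complex 2, and Synapsin1-Cre acts in neurons, so glia and other cells of the tissue keep the gene.

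Replication-dependent histone mRNAs are made in S phase, when DNA is copied, and are destroyed when copying ends. They end in a conserved stem-loop in place of a poly(A) tail, which the protein SLBP binds. A library from total RNA can hold them, while selection for poly(A) would lose most. In adult brain most neurons no longer divide, and dividing cells are mainly glia, their precursors and neural progenitors, so these mRNAs are commonly read as a trace of cells that copy DNA.

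The stem-loop, a paired stem of 6 bases that begins with GG followed by 3 pyrimidines, around a 4-base loop, was looked for in the GENCODE M21 transcript models (GRCm38). It was present in 41 of the 59 histone gene models (69.5%) and in 15 of 55391 other models (0.0271%). The 41 sequences fall into 8 forms, and the form separates H4 from the other classes. The same form, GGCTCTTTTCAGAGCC, was found in 23 genes of the H1, H2A, H2B and H3 classes, and the 30 stem-loops outside H4 all have the stem GGCTCT. The 11 stem-loops of H4 genes have the stem GGCCCT, in 9 genes, or GGTCCT, in 2. The lines below give one gene of each kind that the results turn on, in the sense strand from 5′ to 3′, with the stem-loop in capitals.
H1f2: ccaaaaGGCTCTTTTCAGAGCCacca
H2ac20: caaaaaGGCTCTTTTTAGAGCCacca
H2bc9: cccaaaGGCTCTTTTCAGAGCCactc
H3c3: aaaaaaGGCTCTTTTAAGAGCCacct
H3c8: tttaaaGGCTCTTCTTAGAGCCaccc
H4c3: acaaaaGGCCCTTTTCAGGGCCaccc
H4c14: cctaacGGCCCTTTTTAGGGCCaacc
The models of H1f5, H2bc18 and H2bc21 are among those in which the pattern was not found, which says only that these letters are not in the model. Of the models with a stem-loop, 22 end within 60 bases after it, and 15 run on for more than 300 bases, as in H1f2, H2bc9 and H4c14.

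Promoters were taken from RefSeq (GRCm38.p6), 250 bases before to 50 after the start, for 53 of the 59 genes, in 54 windows. Windows of H2bc4, H2bc21, H2bc24, H3c1, H3c7 and H4c14 were not used here. Matches were sought on both strands for the CCAAT box (CCAAT), the octamer of H2B genes (ATTTGCAT), the TATA box (TATAAA) and the H1 box (AAACACA), and in 0 of the 54 windows did matches of different motifs overlap. CCAAT was present in all 5 H1, 15 H2A, 14 H2B and 9 H3 windows, in 3 of 11 H4 windows (27.3%) and in 37.4% of all 32851 promoter windows. The octamer was in 6 of 14 H2B windows (42.9%), 5 of 15 H2A windows (33.3%), 0 of the H1, H3 and H4 windows and 1.74% of all windows. The H1 box was in 4 of 5 H1 windows against 7.18% of all, and TATAAA in 59.3% of the histone windows against 13.6% of all. A match is only a string of letters and does not show that a factor binds. The 3 promoters below, of an H1 gene and an H3 gene that rose after kainate and of the H2B gene that differed between genotypes, are written from 5′ to 3′ along the gene with these motifs in capitals.
H1f5 promoter, chr13:21780576-21780875 (minus strand): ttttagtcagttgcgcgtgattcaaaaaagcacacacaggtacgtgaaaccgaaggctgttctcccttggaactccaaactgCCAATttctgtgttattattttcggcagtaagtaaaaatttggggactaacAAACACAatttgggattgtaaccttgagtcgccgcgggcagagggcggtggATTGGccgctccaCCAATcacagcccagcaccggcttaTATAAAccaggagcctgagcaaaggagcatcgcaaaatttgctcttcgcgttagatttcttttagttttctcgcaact
H3c3 promoter, chr13:23745472-23745771 (minus strand): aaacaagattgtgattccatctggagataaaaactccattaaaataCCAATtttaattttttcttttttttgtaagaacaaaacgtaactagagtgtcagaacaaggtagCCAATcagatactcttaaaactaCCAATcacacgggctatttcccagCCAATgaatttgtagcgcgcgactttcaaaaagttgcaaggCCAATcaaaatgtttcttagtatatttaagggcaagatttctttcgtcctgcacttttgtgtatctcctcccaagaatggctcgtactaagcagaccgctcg
H2bc18 promoter, chr3:96269450-96269749 (plus strand): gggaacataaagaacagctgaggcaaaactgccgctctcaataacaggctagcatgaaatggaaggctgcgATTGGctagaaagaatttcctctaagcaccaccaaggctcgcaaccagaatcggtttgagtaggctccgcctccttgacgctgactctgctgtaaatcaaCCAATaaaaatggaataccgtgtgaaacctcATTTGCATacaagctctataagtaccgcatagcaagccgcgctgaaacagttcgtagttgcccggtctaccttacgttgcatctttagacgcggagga
Among the genes with windows, an H2A and an H2B gene stand head to head in 7 places. Their windows share 252 to 279 bases, so that most of the sequence is counted under both genes.

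Levels are given as CPM, counts scaled to the size of each library with TMM factors, and total reads per library ran from 24496685 to 43948317. Ezh2 itself was at 9.61 to 12.9 CPM in WT saline and at 11.8 to 15.5 CPM in EZH2nHom saline; reads over the whole gene from all cells of the tissue did not check the genotype. The labels number the libraries of a group as replicates without naming an animal. The p-values measure only the spread between libraries, estimated over all 4 groups, and part of it may be technical. By their Y-linked reads, given further on, WT saline, WT kainate and EZH2nHom kainate each hold libraries of both sexes, and so of different animals. In bulk tissue, fewer cells with a transcript and less of it per cell cannot be told apart. EZH2nHom saline replicates 4 and 5 and EZH2nHom kainate replicate 4 stood apart in 18 small structural RNAs, with sums of 8080, 7130 and 8410 CPM. The other EZH2nHom libraries had 1800 to 2780 CPM, WT kainate libraries 615 to 2100 CPM and WT saline libraries 483 to 780 CPM. Most of it was Rpph1, the RNA of ribonuclease P, at 5980 to 6930 CPM in those 3 libraries. The counts and medians of EZH2nHom comparisons are given with and without them below.

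Only part of the histone reads can be placed with certainty. Of the 59 gene models, 50 share more than 20% of their 32-base words with another model, and only H1f1, H1f2, H1f3, H1f5, H2ac6, H2bc6, H2bc21, H4c4 and H4c14 share less. Every word of H2ac18 and H2ac19 is also found in the model Gm20633, and every word of H2bc18 and H3c13 in Gm20628, and H1f4 and H2bc6 overlap each other. How reads with several matches were counted, and whether strand was used, is not given in the sources used here. Values of single genes in these families are therefore uncertain, and sums over a class are less so.

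By level per length of the longest model, averaged over the 19 libraries, H2bc18 was highest at 25.3 CPM per kb, followed by H2bc4 at 21.7, H1f2 at 19.7, H4c3 at 16.7, H1f4 at 15.7 and H1f1 at 14.7. The highest H3 gene, H3c11, reached 4.23 CPM per kb and the highest H2A gene, H2ac19, 5.05 CPM per kb. The shortest models are coding regions alone, which raises their value on this scale.

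Kainate against saline asks which histone mRNAs changed after status epilepticus, first in WT and then in EZH2nHom mice. In WT hippocampus the summed level of the 59 genes was 154, 153, 167, 172 and 166 CPM in the saline libraries and 211, 251, 346, 394 and 333 CPM in the kainate libraries. Every kainate library was above every saline library, and the means of 162 ± 8.42 and 307 ± 74.5 CPM (SD, n = 5 each) differed 1.89-fold. In EZH2nHom the sums were 183, 159, 171, 250 and 223 CPM after saline and 245, 180, 260 and 563 CPM after kainate. These groups overlapped, with means of 197 ± 38.2 (SD, n = 5) and 312 ± 171 CPM (SD, n = 4), 1.58-fold apart. Kainate replicate 4 held the highest value, and without it the ratio was 1.16.

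**Figure D1:**
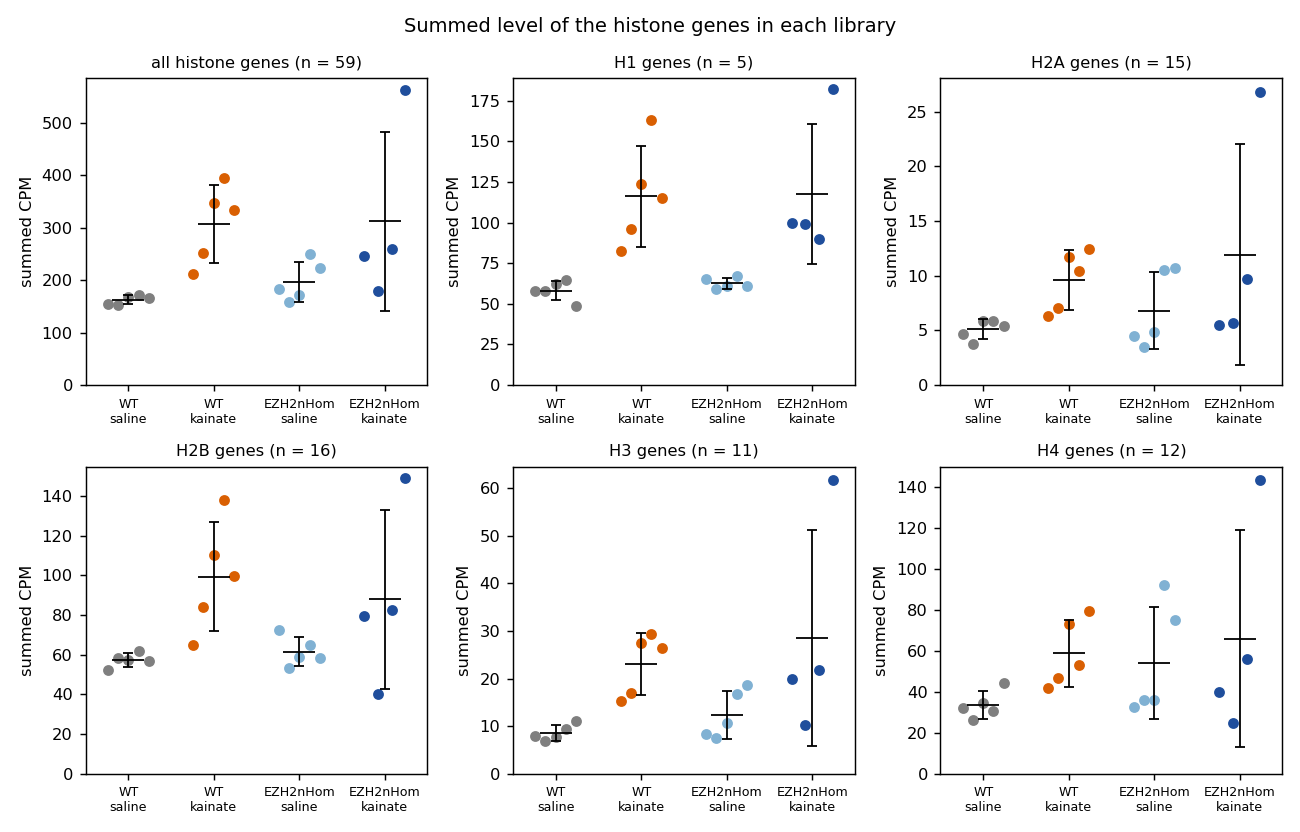
Summed CPM per library for all 59 histone genes and for each class, with 1 point per library in replicate order and bars for mean ± SD. In WT every kainate point lies above every saline point for all genes together (211 to 394 against 153 to 172 CPM), while in EZH2nHom the groups overlap and kainate replicate 4 is the highest point in all 6 panels.

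In the edgeR quasi-likelihood fit over all genes, 22 of the 52 histone genes passed in WT (42.3%, against 12% of all genes tested), at a Benjamini-Hochberg adjusted p under 0.05. Of these calls, 21 were higher, against 9.47% of all genes, and 1, H2bc21, was lower, against 2.57%. The median log2 change of the 52 was 1.13, against -0.02 over all genes, and 51 of 52 had a change above 0. The median was the same with H2ac24, which had no read in WT saline, set at the bound that 3 reads per library allow. In 25 of 52 genes every kainate library was above every saline library, against 9.78% of all genes, and in 1 every kainate library was below, against 4.63%. The count of 22 rests on modest margins: it was 10, 9 and 10 without WT saline replicate 1, 2 or 3, and 10 without WT kainate replicate 3 or 4. In those fits 1138 to 1379 of all genes were higher and 187 to 343 lower, of 19169 to 19222 tested. Sample codes in the labels begin with a number, and 6 WT libraries have a prefix that occurs in both arms. With the prefix as a block in these 6, 0 histone genes and 0 of all genes passed. An unadjusted p under 0.05 was found for 31 of 50 histone genes, against 2167 of 18706 genes, with a histone median of 1.15.

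In EZH2nHom 19 of the 52 passed (36.5%), against 26.1% of all genes. Of these, 18 were higher (34.6%, against 14.3% of all genes) and H2bc21 was again lower, against 11.8%. The median log2 change was 1.02, against -0.02 over all genes, with 49 of 52 above 0. The groups did not overlap in 4 genes that were higher, H1f2, H2bc9, H2bc13 and H3c3, against 9.93% of all genes, and in 1 that was lower, against 9.23%. Without kainate replicate 4, the number of calls was 7, with H1f2, H1f4, H1f5, H2bc9, H2bc13 and H3c3 higher and H2bc21 lower, and the median was 0.24. The 6 higher calls of 52 tested were then a share near that of all genes, of which 2211 of 19341 were higher and 1653 lower. Without saline replicate 2 or 3 the number was 11 each, beside 2376 and 2422 of all genes higher and 1861 and 1934 lower. Without all 3 libraries high in structural RNA, an alternative added after the values were seen, it was 11 of 50, with a median of 0.58. Of all 19112 genes 1691 were then higher and 1096 lower. Class by class, without kainate replicate 4 the EZH2nHom calls that were higher came to 3 of 5 H1, 0 of 8 H2A, 2 of 16 H2B, 1 of 11 H3 and 0 of 12 H4 genes tested. The class medians were then 0.52, -0.04, 0.63, 0.89 and -0.43, and 1 of 12 H4 genes had a change above 0. Without all 3 libraries the calls were 2 of 5 H1, 1 of 6 H2A, 2 of 16 H2B, 4 of 11 H3 and 1 of 12 H4 genes, with medians of 0.54, 0.66, 0.78, 1.06 and 0.32.

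Both genotypes called 16 genes higher: H1f1, H1f2, H1f4, H1f5, H2bc3, H2bc8, H2bc9, H2bc11, H2bc12, H2bc13, H2bc14, H2bc15, H3c1, H3c2, H3c3 and H3c15. They are 76.2% of the WT calls and 88.9% of the EZH2nHom calls, and these comparisons share no library. H1f3, H2ac20, H2bc18, H3c10 and H4c12 were called in WT alone and H3c7 and H3c8 in EZH2nHom alone. None of these 7 passed the test of the difference between the genotypes' responses, given further on. With only the groups compared in the fit, 38 of 46 tested histone genes were higher in WT, beside 2091 of 17813 genes. In EZH2nHom 7 of 47 were then higher, H1f2, H1f4, H1f5, H2bc9, H2bc11, H3c2 and H3c3, beside 2131 of 18360 genes.

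The calls were also counted by gene model. Of the 9 genes that share at most 20% of their words, 4 were called higher and 1 lower after kainate in WT, and 3 and 1 in EZH2nHom. Of the 43 tested genes that share more, 17 and 15 were called higher. Of the models that end within 60 bases after the stem-loop 20 were tested and 7 rose in each genotype, with medians of 1.40 and 1.22. Of those that run on for more than 300 bases 5 of 15 rose in each, with medians of 0.83 and 0.65. For comparison, 9.47% of all genes tested were called higher in WT and 14.3% in EZH2nHom, and 2.57% and 11.8% lower.

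**Figure D2:**
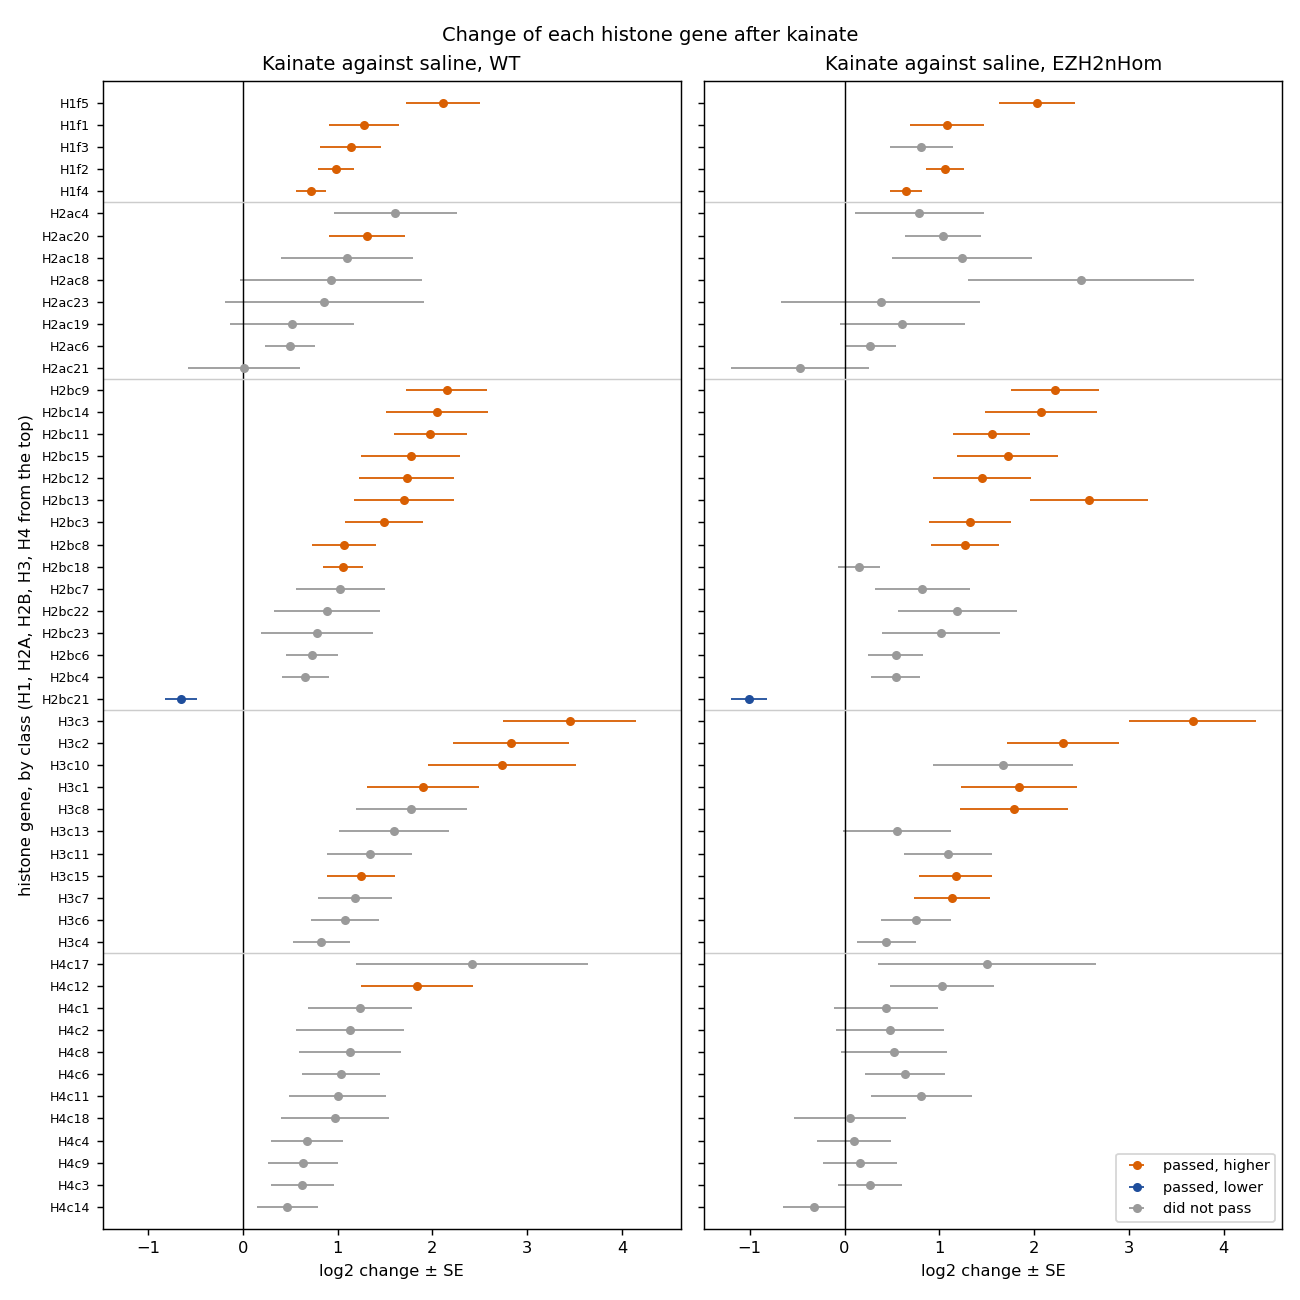
Log2 change ± SE after kainate in WT (left) and EZH2nHom (right) for 51 of the 52 tested histone genes, grouped by class and ordered by the WT change; H2ac24, without reads in WT saline, is left out. Nearly all points lie above 0 in both panels, H2bc21 lies below 0 in both, and only 1 H4 gene, H4c12, passed, in WT.

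The linker histones bind the nucleosome where DNA enters and leaves it. All 5 H1 genes rose in WT and 4 of 5 in EZH2nHom, beside 9.47% and 14.3% of all genes, with median log2 changes of 1.14 and 1.06. H1f5 was at 1.93, 1.99, 1.34, 1.21 and 1.69 CPM in WT saline and at 3.90, 5.01, 8.31, 11.8 and 6.34 CPM in WT kainate, and the groups were far apart. In EZH2nHom H1f5 was at 1.90, 1.24, 1.16, 1.64 and 1.55 CPM after saline and at 4.95, 1.61, 5.73 and 12.2 CPM after kainate. Here kainate replicate 2 stayed among the saline values and the other 3 lay above them. The log2 changes were 2.11 ± 0.39 (SE, adjusted p = 0.00123) in WT and 2.03 ± 0.40 (adjusted p = 0.00109) in EZH2nHom.

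H1f2, the H1 gene with the highest level per length, was at 21, 21.6, 24.2, 25.5 and 16.8 CPM in WT saline and at 30.0, 36.7, 45.2, 60.9 and 42.4 CPM in WT kainate. In EZH2nHom it was at 21.8, 14.5, 21, 22.6 and 17.6 CPM after saline and at 34.0, 39.1, 30.8 and 58.9 CPM after kainate. The kainate libraries were above the saline libraries in both genotypes, replicate 2 of EZH2nHom included, with log2 changes of 0.98 ± 0.19 (SE, adjusted p = 0.00198) and 1.06 ± 0.20 (adjusted p = 0.000741). H1f4 rose less, by 0.72 ± 0.16 and 0.65 ± 0.17. H1f1 rose by 1.28 ± 0.37 and 1.08 ± 0.39, although without EZH2nHom kainate replicate 4 its change there was 0.52 (adjusted p = 0.309). H1f3 rose by 1.14 ± 0.32 in WT, with 0.81 ± 0.33 (adjusted p = 0.0801) in EZH2nHom. Few of the reads of H1f1, H1f2, H1f3 and H1f5 could come from a copy, since these models share 0.1% to 11.2% of their words with others.

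H2A is the core histone that pairs with H2B. Of 9 tested H2A genes 1, H2ac20, rose in WT, a share near the 9.47% of all genes called higher, and 0 rose in EZH2nHom, while the median log2 changes were 0.93 and 0.79. H2ac20 was at 0.580, 0.612, 0.551, 0.458 and 0.450 CPM in WT saline and at 0.928, 1.13, 1.56, 1.29 and 1.68 CPM in WT kainate. The WT groups did not overlap, and the change was 1.31 ± 0.40 (SE, adjusted p = 0.0367). In EZH2nHom its change was 1.04 ± 0.40 (adjusted p = 0.0607), with saline replicates 4 and 5, at 1.28 and 1.55 CPM, within the kainate range. It was the 1 H2A gene with an unadjusted p under 0.05 there, and DESeq2 called it. The summed H2A level stayed at or under 12.4 CPM in 18 libraries and was 26.8 CPM in EZH2nHom kainate replicate 4, and 6 of the 15 genes had too few reads to test.

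H2B genes made up the largest group of calls, with 9 of 15 higher in WT and 8 of 15 in EZH2nHom, beside 9.47% and 14.3% of all genes. The medians were 1.07 and 1.27. H2bc9 was at 0.322, 0.428, 0.310, 0.593 and 0.380 CPM in WT saline and at 1.06, 1.19, 2.65, 3.06 and 1.25 CPM in WT kainate. In EZH2nHom H2bc9 was at 0.325, 0.290, 0.444, 0.152 and 0.268 CPM after saline and at 0.603, 0.624, 1.55 and 2.78 CPM after kainate. The kainate libraries were above the saline libraries in both genotypes, with changes of 2.15 ± 0.43 (SE, adjusted p = 0.00261) and 2.22 ± 0.46 (adjusted p = 0.00165). H2bc11 rose by 1.98 ± 0.38 and 1.55 ± 0.41, and H2bc14 by 2.05 ± 0.54 and 2.07 ± 0.59. Without EZH2nHom kainate replicate 4 their changes there were 1.02 (adjusted p = 0.0644) and 1.25 (adjusted p = 0.114). H2bc4 and H2bc6, the H2B genes with the most reads, had smaller changes that did not pass, 0.66 ± 0.25 (adjusted p = 0.0902) and 0.73 ± 0.27 (adjusted p = 0.0957) in WT and 0.54 ± 0.26 and 0.54 ± 0.29 in EZH2nHom.

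H2bc21, which encodes the H2B variant known as H2BE and is expressed in non-dividing neurons, went the other way. It was at 9.99, 11.5, 8.50, 9.94 and 8.54 CPM in WT saline and at 6.33, 5.51, 5.08, 7.14 and 6.82 CPM in WT kainate. In EZH2nHom it was at 13.8, 9.02, 9.18, 9.55 and 9.21 CPM after saline and at 6.93, 3.30, 4.83 and 5.07 CPM after kainate. Every kainate library was below every saline library of its genotype. It fell by 0.65 ± 0.17 on the log2 scale in WT (SE, adjusted p = 0.0172) and by 1.01 ± 0.19 in EZH2nHom (adjusted p = 0.000588). Its model shares 2.5% of its words with others, and no stem-loop was found in it. Summed neuron markers, 12 genes such as Rbfox3 and Syt1, lay at 6950 to 7500 CPM in WT saline and 4850 to 7530 CPM in WT kainate, where 1 passed lower. In EZH2nHom they lay at 7180 to 7860 CPM after saline and 4860 to 6350 CPM after kainate, with 5 of 12 lower. For comparison, 2.57% of all genes were lower in WT and 11.8% in EZH2nHom. None of the neuron markers was at 0 in any library, and the part of neuron number in the fall of H2bc21 was not tested.

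H3 genes, whose proteins carry the lysine that EZH2 methylates, had median changes of 1.60 in WT, the highest of the 5 classes there, and 1.17 in EZH2nHom. Of the 11 genes, 5 rose in WT and 6 in EZH2nHom, beside 9.47% and 14.3% of all genes. H3c3 was at 0.161, 0.122, 0.0688, 0.0808 and 0.0346 CPM in WT saline, 15 reads in all, and at 0.256, 0.498, 1.85, 1.69 and 1.09 CPM in WT kainate, 161 reads in all. In EZH2nHom H3c3 was at 0.108, 0.0828, 0.178, 0.152 and 0.178 CPM after saline, 23 reads in all, and at 1.0, 0.367, 1.11 and 4.92 CPM after kainate. The groups did not overlap in either genotype. The log2 changes were the largest of the members that passed, 3.45 ± 0.70 (SE, adjusted p = 0.0027) and 3.67 ± 0.67 (adjusted p = 0.000558), from very few saline reads.

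H3c2 rose by 2.83 ± 0.61 in WT (adjusted p = 0.00443) and by 2.30 ± 0.59 in EZH2nHom (adjusted p = 0.00721). Its WT groups did not overlap, at 0.258 to 0.593 and 1.41 to 4.71 CPM. In EZH2nHom, kainate replicate 2 at 0.440 CPM lay below all saline libraries and replicate 4 at 11.1 CPM far above the other kainate libraries. Without replicate 4 the change was 1.32 (adjusted p = 0.0764). H3c4, H3c6 and H3c11 had WT changes of 0.83 ± 0.30, 1.08 ± 0.36 and 1.34 ± 0.45 that missed the threshold, although every WT kainate library was above every WT saline library.

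Of 12 H4 genes, which form the core of the nucleosome together with H3, 1 rose in WT, H4c12 (1.84 ± 0.59, SE, adjusted p = 0.0477), and 0 in EZH2nHom, beside 9.47% and 14.3% of all genes, with medians of 1.02 and 0.46. H4c3, the H4 gene with the highest level, was at 10.5, 7.86, 8.98, 9.0 and 14.1 CPM in WT saline and at 12.5, 12.6, 18.8, 13.4 and 20.9 CPM in WT kainate, a change of 0.63 ± 0.33 (adjusted p = 0.244). In EZH2nHom it was at 8.02, 9.31, 9.21, 20.2 and 20 CPM after saline and at 9.59, 9.94, 13.5 and 31.3 CPM after kainate, a change of 0.27 ± 0.34 (adjusted p = 0.607). The groups overlapped in both genotypes, and the saline values of EZH2nHom fell into a low set of 3 and a high pair. Whether the H4 response differed from that of the other classes was not tested. By edgeR 0 H4 genes were called in EZH2nHom at the adjusted threshold, 0 had an unadjusted p under 0.05, and DESeq2 called 0.

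The high pair is EZH2nHom saline replicates 4 and 5, which also stood apart in structural RNA. Their H4 sums were 91.8 and 74.8 CPM against 32.4 to 36.1 CPM in the other 3 libraries of the group, their H2A sums were 10.5 and 10.7 against 3.44 to 4.86 CPM, and their H3 sums were 16.7 and 18.6 against 7.58 to 10.7 CPM. Their H1 sums of 66.9 and 60.9 CPM lay close to the 58.8 to 65.5 CPM of the other 3. Their sums over 34 S-phase and DNA replication genes, 215 and 216 CPM, lay within the 213 to 251 CPM of the others. EZH2nHom kainate replicate 4 was highest in H1 (182 CPM against 89.8 to 99.9), in H4 (143 against 24.8 to 56.0 CPM) and in S-phase genes (537 against 355 to 393 CPM). In the EZH2nHom saline libraries, H4, H2A and H3 sums were thus high where structural RNA was high, and H1 and S-phase sums were not. The part of structural RNA in these levels was not tested.

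**Figure D3:**
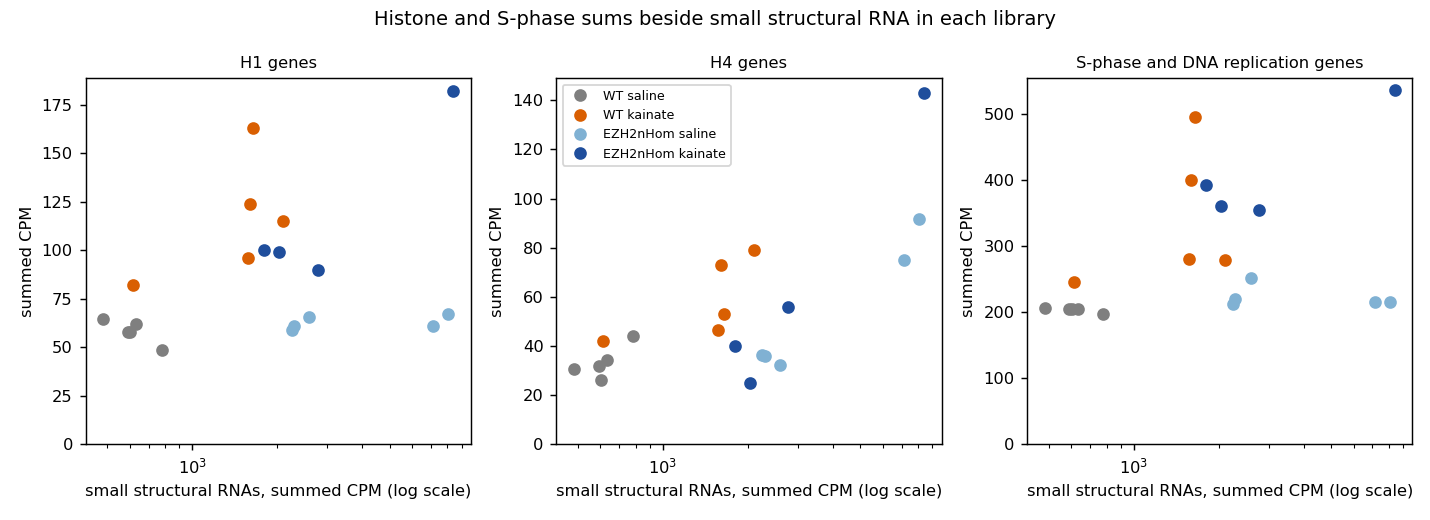
Summed CPM of H1 genes, H4 genes and 34 S-phase genes against the summed CPM of 18 small structural RNAs on a log scale, 1 point per library. EZH2nHom saline replicates 4 and 5 (8080 and 7130 CPM of structural RNA) lie with their group in H1 and S-phase genes and above it in H4 genes, and EZH2nHom kainate replicate 4 is high in all 3 panels.

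With the structural RNA level as a covariate, 1 of 52 histone genes passed in WT, H1f5 (1.45, adjusted p = 0.0356), and the median fell from 1.13 to 0.38. Of all 19234 genes 615 were then higher and 113 lower, so the histone genes no longer stood above that share. In WT the covariate and the treatment overlap, since 4 of 5 kainate libraries held 1570 to 2100 CPM of structural RNA and the saline libraries at most 780, so they can hardly be told apart there. In EZH2nHom, where structural RNA did not rise with kainate, 24 of 52 histone genes passed with the covariate, 23 of them higher, and the median was 1.03. Of all 19234 genes 2882 were higher and 2447 lower there.

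Genotype was compared within each treatment, which asks whether deletion of EZH2 in neurons changed these mRNAs. After saline 2 of 52 histone genes passed (3.85%), against 13.5% of all genes, and both were higher in EZH2nHom, against 8.33% of all genes. The median log2 difference was 0.26, against 0.02 over all genes. In 3 of 52 every EZH2nHom library was above every WT library, against 12.9% of all genes. The 12 H4 genes had a median difference of 0.79, all above 0, beside the high values of saline replicates 4 and 5, and without the 3 high libraries it was 0.03, with 6 of 12 above 0. With structural RNA as a covariate 11 histone genes passed lower and 0 higher, with a median of -1.50, beside 442 lower and 734 higher of all 19234 genes. After saline, structural RNA was at 483 to 780 CPM in the WT libraries and at 2250 to 8080 CPM in the EZH2nHom libraries. The covariate and the genotype can therefore hardly be told apart there. Over all classes 2 of 50 histone genes passed without the 3 high libraries, H2bc18 higher and H2bc8 lower, with a median of -0.08. Of all 19112 genes 1329 were then higher and 881 lower. The prefixes of the sample codes are shared by 0 pairs of WT and EZH2nHom libraries, so the prefix and the genotype cannot be told apart. By their Y-linked reads, the sexes were not balanced either. Summed reads of 4 Y-linked genes were at 0.0 to 0.483 CPM in WT saline replicates 1 and 2, WT kainate replicates 1 and 2 and EZH2nHom kainate replicate 1, and at 156 to 317 CPM in the other 14 libraries, which include all of EZH2nHom saline. With the Y-linked level as a covariate 1 histone gene passed after saline, beside 1283 higher and 799 lower of all 19234 genes.

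H2bc18, an H2B gene of the chromosome 3 cluster, was at 4.48, 5.29, 5.09, 5.98 and 4.05 CPM in WT saline and at 14.1, 11.8, 11.5, 8.09 and 10.5 CPM in EZH2nHom saline. Every EZH2nHom library was above every WT library, and the difference was 1.17 ± 0.21 (SE, adjusted p = 0.00105). After kainate it was at 4.83, 10.5, 12.5, 13 and 11.3 CPM in WT and at 10.8, 11.9, 11.7 and 15.4 CPM in EZH2nHom. WT kainate replicate 1 kept the saline level while the other 4 reached the EZH2nHom range, and the genotype difference was 0.26 ± 0.22 (adjusted p = 0.508). In WT kainate raised it by 1.06 ± 0.21 (adjusted p = 0.00226), and in EZH2nHom the change was 0.15 ± 0.22 (adjusted p = 0.648). The difference between these responses, -0.91 ± 0.30, did not pass over all genes (adjusted p = 0.465). The genotype difference after saline was 1.32 (adjusted p = 0.00149) without the 3 libraries high in structural RNA and 0.89 (adjusted p = 0.151) with structural RNA as a covariate, and 1.01 (adjusted p = 0.00429) with the Y-linked level as one. Structural RNA and genotype can hardly be told apart after saline. The model Gm20628, which holds all its words, did not move with it, with a genotype difference of -0.02 ± 0.25 after saline, but within H2bc18 reads of both models cannot be told apart.

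H4c14, a chromosome 3 H4 gene whose model shares 2.3% of its words with others, was at 2.96, 3.58, 3.06, 3.42 and 3.73 CPM in WT saline and at 4.63, 5.84, 5.13, 9.40 and 7.61 CPM in EZH2nHom saline. All EZH2nHom values were above the WT values, the highest in replicates 4 and 5. The difference was 0.96 ± 0.32 (SE, adjusted p = 0.0493), at the edge of the threshold. It was 0.63 (adjusted p = 0.175) without the 3 libraries high in structural RNA, 0.89 (adjusted p = 0.106) with the Y-linked level as a covariate, and -0.38 (adjusted p = 0.627) with structural RNA as one. The last value has the same limit, since structural RNA and genotype can hardly be told apart after saline.

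**Figure D4:**
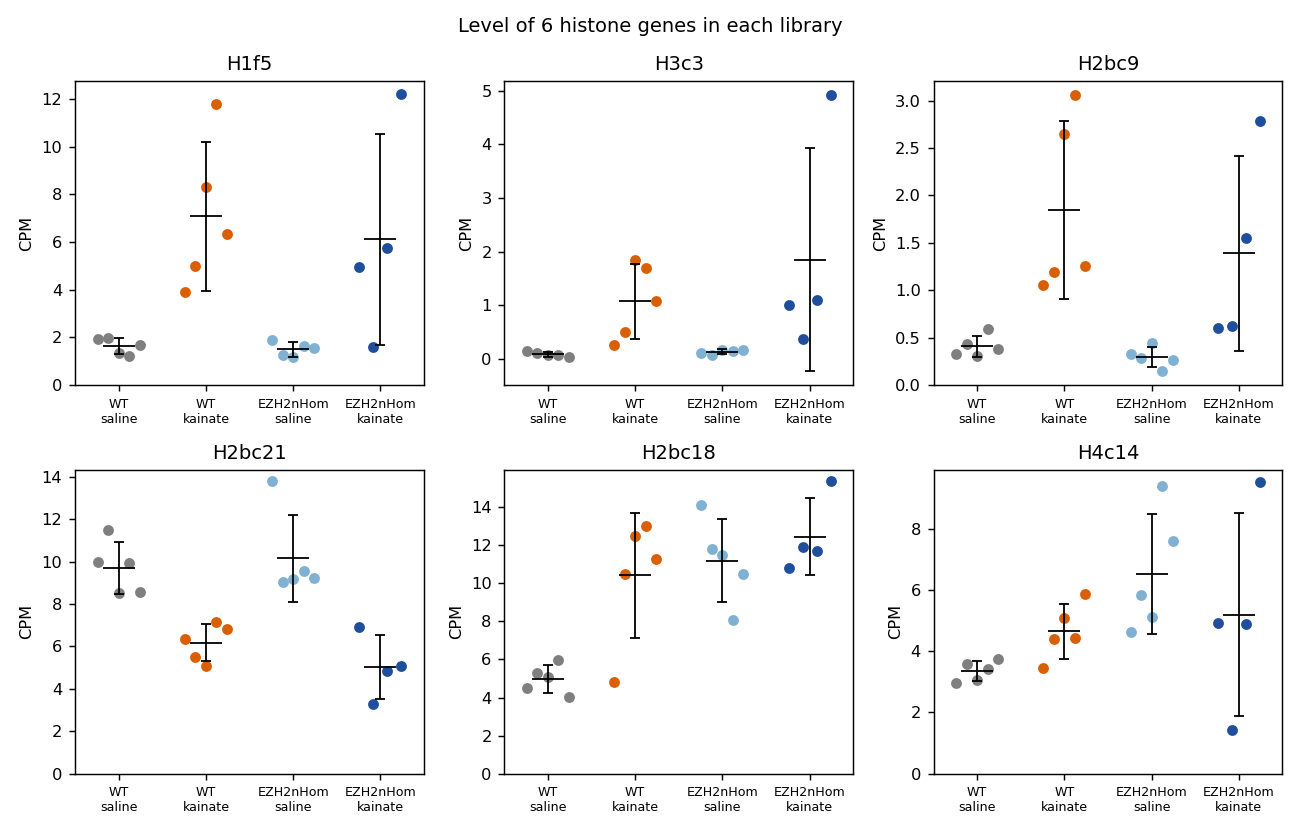
CPM of 6 histone genes in each library, with 1 point per library in replicate order and bars for mean ± SD. H1f5, H3c3 and H2bc9 are higher after kainate, H2bc21 is lower in every kainate library of both genotypes (3.30 to 7.14 against 8.50 to 13.8 CPM), and H2bc18 and H4c14 are higher in EZH2nHom than in WT after saline.

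After kainate 0 of 52 histone genes passed between the genotypes by edgeR, against 7.61% of all genes. None of the histone genes had an unadjusted p under 0.05, against 4599 of all 19234 genes. DESeq2 also called 0, over the 33 histone genes to which it gave an adjusted p. With structural RNA as a covariate 7 passed lower, beside 471 of all 19234 genes. The median log2 difference was -0.04, against 0.00 over all genes. These values rest on EZH2nHom kainate replicate 4. Without it 0 passed as well, and the median was -0.67. An unadjusted p under 0.05 was then found for 13 of 52 histone genes, a share near that of all genes (4767 of 19341). Without all 3 libraries high in structural RNA the median was -0.66 with 15 such genes of 50, beside 4558 of all 19112. The difference of the kainate responses passed in 0 of 52 genes and in 0.0% of all genes by edgeR. The median was -0.26, and 1 histone gene, H2bc18, had an unadjusted p under 0.05, against 1685 of all 19234 genes. Without EZH2nHom kainate replicate 4 the median was -0.92 with 16 of 52 histone genes at an unadjusted p under 0.05, against 1774 of 19341 genes. Without the 3 libraries it was -0.58 with 2 of 50 such genes, against 1784 of 19112, and 0 histone genes passed either way. DESeq2 called 0 of the 4 histone genes to which it gave an adjusted p. For H1f2 and H1f4 the differences were 0.08 ± 0.27 and -0.07 ± 0.23, and for H3c3 0.23 ± 1.11, so the precision differed widely between genes. These counts do not show that the genotypes respond alike.

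Few genes for factors that make and process histone mRNA passed after kainate, where 12% of all genes passed in WT and 26.1% in EZH2nHom. Of 22 such genes 1 was higher in WT, Eri1, an exonuclease that trims the stem-loop end (0.37 ± 0.11, adjusted p = 0.027). In EZH2nHom Upf1, a helicase in the decay of histone mRNA, was higher (0.33 ± 0.09) and Lsm11, a protein of the U7 particle, lower (-0.76 ± 0.19). Slbp, which binds the stem-loop, had changes of 0.18 ± 0.10 (adjusted p = 0.242) and 0.13 ± 0.10 (adjusted p = 0.35), and Npat, the coactivator of histone genes, of -0.04 ± 0.13 and -0.11 ± 0.13. Between the genotypes after saline 4 of the 22 were higher in EZH2nHom, against 8.33% of all genes. Among them was Casp8ap2, a scaffold of histone locus bodies (0.53 ± 0.10, adjusted p = 0.00104). Pou2f1, which binds the octamer, was lower (-0.56 ± 0.12, adjusted p = 0.00383).

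Histone chaperones carry histones and place them on DNA. Of 21 chaperone genes 4 rose in WT and 5 in EZH2nHom, beside 9.47% and 14.3% of all genes, with medians of 0.08 and 0.15. Asf1b, a carrier of new H3 and H4, rose by 2.61 ± 0.43 in WT and by 2.82 ± 0.44 in EZH2nHom, and Chaf1b, a subunit of chromatin assembly factor CAF-1, by 2.07 ± 0.33 and 2.09 ± 0.33. Chaf1a, another CAF-1 subunit, rose by 0.50 ± 0.15 and 0.68 ± 0.15. Of 13 tested genes for histone variants that are made outside S phase 2 were higher in each genotype, with medians of 0.12 in both. That count is not far from the 9.47% and 14.3% of all genes called higher. These were the centromeric H3 variant gene Cenpa, by 1.88 ± 0.33 and 2.13 ± 0.34, and H2az1, by 0.30 ± 0.09 and 0.43 ± 0.09.

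Genes of DNA copying and division were counted beside the histone genes. Of 34 S-phase and DNA replication genes 22 rose in WT and 25 in EZH2nHom, with medians of 0.85 and 1.04, and all 20 mitosis genes rose in both, with medians of 2.73 and 3.02. Of all genes 9.47% and 14.3% were called higher. Mki67, a marker of dividing cells, was at 6.22, 7.86, 9.50, 6.52 and 5.36 CPM in WT saline and at 24.9, 34.5, 78.7, 120 and 29.2 CPM in WT kainate, and replicates 3 and 4, the highest in histone sums, were also the highest in Mki67. In EZH2nHom it was at 6.91 to 13.5 CPM after saline and 46.4 to 88.4 CPM after kainate, and it rose by 3.02 ± 0.38 in WT and 2.60 ± 0.38 in EZH2nHom. Histone sums did not follow these genes in every library. EZH2nHom kainate replicate 2 had a histone sum of 180 CPM, within the saline range, with an S-phase sum of 360 CPM and a mitosis sum of 161 CPM, above the saline ranges of 213 to 251 and 41.1 to 67.3 CPM. The classes differed in this library. Its H1 sum of 98.9 CPM was above the EZH2nHom saline range of 58.8 to 66.9 CPM. Its H2B and H4 sums, 40.1 and 24.8 CPM, were below the saline ranges of 53.4 to 72.2 and 32.4 to 91.8 CPM. Its H2A and H3 sums, 5.72 and 10.3 CPM, lay within 3.44 to 10.7 and 7.58 to 18.6 CPM.

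Markers of other cell types moved to different degrees. Of all genes 9.47% were higher and 2.57% lower after kainate in WT, and 14.3% and 11.8% in EZH2nHom. Counts of 1 or 2 in these short lists therefore do not stand out from all genes. All 15 microglia markers passed higher in WT and 14 in EZH2nHom, with sums of 504 to 568 CPM in WT saline, 976 to 3140 in WT kainate, 438 to 491 in EZH2nHom saline and 1550 to 3190 CPM in EZH2nHom kainate. Of 10 oligodendrocyte precursor markers 5 were higher and 1 lower in WT and 2 higher in EZH2nHom, with sums of 539 to 661, 830 to 1220, 510 to 620 and 492 to 986 CPM in the same order. Of 10 astrocyte markers 4 and 6 rose, with sums of 6150 to 6830, 8830 to 11000, 4900 to 5470 and 6500 to 10900 CPM. Of 12 neural stem and progenitor markers 2 rose in WT, and 2 rose and 4 fell in EZH2nHom, with sums of 245 to 264, 235 to 322, 253 to 325 and 214 to 307 CPM. Of 10 monocyte and border macrophage markers, 9 were tested and 3 and 4 rose, with sums of 13.6 to 18.6, 16.9 to 60.5, 10.7 to 20.3 and 19.4 to 48.2 CPM, and Ccr2, Ly6c2, Plac8 and Clec4d were at 0 in at least 1 library. Of 7 red blood cell genes 6 rose in WT and 0 passed in EZH2nHom (0 also at an unadjusted p under 0.05 in edgeR), and 6 were lower in EZH2nHom than in WT after kainate, with sums of 259 to 772, 553 to 1980, 159 to 401 and 103 to 435 CPM. Of 10 oligodendrocyte markers 1 was higher in WT and 4 were lower in EZH2nHom, with sums of 5620 to 7900, 5020 to 9150, 6680 to 10700 and 3860 to 6670 CPM. Of 12 endothelial and pericyte markers 0 passed after kainate, with 2 in WT and 0 in EZH2nHom at an unadjusted p under 0.05 in edgeR. Of 4 tested lymphocyte and neutrophil markers 1 rose in each genotype. The part of each cell type in the histone changes was not tested.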

How the data were processed

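Read counts per Ensembl gene were deposited by the authors for 19 libraries, unnormalized. The authors also deposited a table of signal values, in which each library's counts were scaled by a single size factor, used here only for gene symbols. The submitters' processing notes name mm39, DESeq2 and DESeq. The aligner, the counter and its strand setting are not given in the sources used here. Counts were fitted with edgeR 4.0.16 (R 4.3.3, TMM, filterByExpr by group, robust glmQLFit and glmQLFTest, 4 groups in 1 fit), and p-values were adjusted by Benjamini-Hochberg over 19234 genes with a threshold of 0.05. The SE is the log2 change divided by the square root of F. DESeq2 1.42.0 and other filters, scalings, covariates and left-out libraries were alternatives. Scripts were tested on simulated data. Lengths, 32-base words and stem-loops came from GENCODE M21 (GRCm38) and promoters from RefSeq (GRCm38.p6), not the build of the counts, and no coordinate was converted. The members and gene lists were chosen with earlier results of these data known. All histone genes may be named. Full statistics were due to the 4 highest in each class and the 5 smallest p in each direction of a comparison, and to up to 4 of another list.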

Additional observations from a re-analysis of the deposited data

Results flagged for a closer look

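In groups of 4 or 5 libraries, a library was listed when its gap to the nearest other made up more of the group's range than Dixon's 95% limit allows. Over 172 groups of histone values 14 were listed, and chance flags about 1 in 20 groups. EZH2nHom kainate replicate 4 accounted for 4 of them. Its H1 sum was 182 CPM (others 89.8 to 99.9), H3c3 4.92 CPM (others 0.367 to 1.11), H3c7 10.4 CPM (others 2.74 to 3.26) and H2ac24 3.93 CPM (others up to 0.22). EZH2nHom saline replicate 5 stood out in H2ac24, at 1.22 CPM with 0.0 in the others, and in H3c2, at 1.90 CPM (others 0.621 to 0.681). Both libraries were also high in structural RNA, and the part of that in these values was not tested. EZH2nHom saline replicate 1 had the highest H2bc21, at 13.8 CPM (others 9.02 to 9.55). WT saline replicate 1 was lowest in H2bc14 (0.451 CPM), H2bc6 (8.89 CPM) and H3c15 (0.806 CPM). WT saline replicate 2 was lowest in H3c11 (0.551 CPM) and highest in H2bc22 (0.642 CPM). WT saline replicate 5 was highest in H3c7 (2.46 CPM), and WT kainate replicate 5 in H2ac21 (0.506 CPM).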

How the results depend on the processing

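After kainate in WT, where 22 histone genes passed, 39 of 46 tested passed with only the groups compared, 8 at an adjusted p under 0.01, 1 with structural RNA as a covariate and 0 with the code prefix as a block, which was chosen after the data were seen and uses 6 libraries. Of all genes, 2091 were higher and 1004 lower of 17813 with only the groups compared. At 0.01 they were 961 and 122 of 19234, and with the covariate 615 and 113. Leaving out 1 library gave 9 to 24 histone genes. In EZH2nHom the count of 19 became 8 of 47 tested with only the groups compared, a share near that of all genes (2131 higher and 935 lower of 18360). It was 9 at 0.01, beside 1781 and 1034 of 19234 genes. Without the 3 libraries above 5000 CPM of structural RNA, also chosen after the data were seen, it was 11 of 50, beside 1691 and 1096 of 19112. With 1 library left out it was 7 to 25. Between the genotypes after saline 2 passed; 1 passed with DESeq2 size factors, no filter, the stricter filter of 1 CPM, the Y-linked level as a covariate, the GC and length offset, 0.01, or any 1 library left out, 6 with only the groups compared, and 11, all lower, with the structural RNA covariate. With that covariate after saline, 734 of all 19234 genes were higher and 442 lower. With only the groups compared 2891 were higher and 2713 lower of 17814, where 43 histone genes were tested. After kainate 7 histone genes passed with that covariate, all lower, beside 471 of all genes lower. H4c14 after saline turned to -0.38 with the covariate, which can hardly be told apart from the genotype there. The cause of these moves was not tested.

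With the replicate number as a block, 35 histone genes passed in WT, 23 in EZH2nHom and 1 between the genotypes after saline. Of all 19234 genes 1685 were then higher and 471 lower in WT, 2399 and 2165 in EZH2nHom, and 1562 and 1055 between the genotypes. Same-numbered libraries correlated at 0.0767 to 0.309 in WT, where 3 of 5 matched best with their own number. In EZH2nHom they correlated at -0.0546 to 0.0895, and replicates 3 and 4 matched best with their own number. The numbers were not taken to pair the libraries. The deposited column names number the EZH2nHom kainate libraries otherwise than the titles, and pairing by the column numbers was not checked.

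The summed fold was 1.75 to 2.04 in WT and 1.16 to 1.80 in EZH2nHom with 1 library left out. Of 687 recomputed values of single named genes 516 kept direction and side of the threshold, 170 lost the call and 1 reversed. Low counts limit many members: H3c3 had 15 reads in all WT saline libraries.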
